A study of Mus musculus with 4 samples.

Results

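Dividing cells were picked out of single-cell RNA-seq libraries of cultured mouse islets by the genes they carried. A cell was kept when it had no fewer than 1000 UMIs (unique molecular identifiers, each standing for 1 captured RNA molecule) from 500 or more genes, of which mitochondrial genes gave 20% or less. A kept cell counted as dividing when it had a UMI of at least 4 of 14 genes: Mki67, Top2a, Cdk1, Ccna2, Ccnb1, Ccnb2, Birc5, Ube2c, Pclaf, Tyms, Rrm2, Cenpf, Nusap1 and Tk1. The cells were thus chosen by measured values, and everything said of these 14 genes describes that choice. Of 31792 kept cells, 99 met it. They were 14 of 7166 cells with vehicle at 3.9 mM glucose, 33 of 8755 with imeglimin at 3.9 mM, 36 of 7444 with vehicle at 11.1 mM and 16 of 8427 with imeglimin at 11.1 mM.

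Islets came from male C57BL6J mice, wild type and 8 weeks old, and were kept in culture for 24 h in either glucose concentration, with 1 mM imeglimin, an oral glucose-lowering drug, or with its DMSO vehicle. Accutase was used to separate the cells, and 10x 3′ libraries were prepared, 1 for each of the 4 conditions, with no label tying cells to single mice. There is no replicate of any condition, so no test between conditions was made. All intervals are 95% intervals for counting error and leave out variation between mice, cultures and libraries.

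In adult islets most endocrine cells are at rest, and new beta cells arise mainly when existing ones divide. A dividing cell first switches on the enzymes that copy DNA, under E2F transcription factors, and later the cyclins, kinases and spindle proteins of mitosis, under FOXM1 and the B-MYB and MuvB complex. Mki67 encodes the proliferation marker Ki-67, Top2a the topoisomerase that untangles DNA, and Cdk1 and Ccna2 the kinase and cyclin that drive the entry into mitosis.

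The late program has a signature in its promoters, the CHR element TTTGAA, which the MuvB complex binds, often beside CCAAT boxes. The early program is known for E2F sites such as TTTGGCGC or TTTCCCGC. Promoter windows of 300 bases, from 250 bases before to 50 after a start, were taken from RefSeq on GRCm38.p6 and searched on both strands for these letters. They were found for 72 of 85 genes of mitosis outside the rule and for 38 of 49 genes of DNA replication. TTTGAA was in 48 of 80 windows of the mitosis genes (60%) and in 7 of 46 windows of the replication genes (15.2%), against 17.9% of all 32851 windows. An E2F site was in 4 windows of the mitosis genes (5%) and in 14 of the replication genes (30.4%), against 1.56% of all. CCAAT was in 73.8% and 56.5%, against 37.4% of all. A match in a window is a description of its letters and was not tied to binding in these cells.

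The 120 bases before the start are given for 3 genes that were higher in dividing beta-like cells of every library (values below), to show the letters behind these shares. Capitals mark the CHR element, CCAAT boxes and E2F sites, on either strand. Cdc20, an activator of the anaphase-promoting complex, lies at chr4:118437344-118437463 on the minus strand and holds 1 TTTGAA and 2 CCAAT. Ncapg, a condensin subunit, lies at chr5:45669805-45669924 on the plus strand and holds 1 TTTGAA. Mcm6, a subunit of the replicative helicase, lies at chr1:128359706-128359825 on the minus strand and holds 2 E2F sites and 2 CCAAT.
Cdc20: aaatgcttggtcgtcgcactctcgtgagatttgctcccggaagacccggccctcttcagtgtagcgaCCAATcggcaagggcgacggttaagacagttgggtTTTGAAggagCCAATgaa
Ncapg: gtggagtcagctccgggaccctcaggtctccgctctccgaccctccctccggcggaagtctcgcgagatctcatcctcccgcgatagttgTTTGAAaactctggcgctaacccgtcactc
Mcm6: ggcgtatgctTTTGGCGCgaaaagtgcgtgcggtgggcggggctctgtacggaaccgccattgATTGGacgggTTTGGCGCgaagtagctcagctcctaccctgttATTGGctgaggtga

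Each library held between 8073 and 10134 cell barcodes and between 91245564 and 106092232 UMIs in all. Kept cells had a median of 11656.5, 8832, 12035 and 11400 UMIs in the order of the libraries above. Any pair of libraries had 15 to 24 kept barcodes in common, and no dividing cell was among them. Dividing cells had a median of 18939 UMIs (3207 to 57873), and all other kept cells 10842. Since a deeper cell shows more genes, the rule finds dividing cells more readily among deep cells.

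Among the genes of the rule, Top2a was found in 90 of the 99 cells, Ube2c, the ubiquitin-conjugating enzyme of mitotic exit, in 87, and Mki67 in 84. Birc5 (survivin) and Cenpf, a kinetochore protein, were each found in 71 and Cdk1 in 69. The cyclins Ccna2, Ccnb1 and Ccnb2 were found in 49, 46 and 42. Of the enzymes of nucleotide supply, Tyms, thymidylate synthase, was found in 59, Tk1, thymidine kinase, in 24 and Rrm2, a subunit of ribonucleotide reductase, in 13. Tyms was also found in 10.9% of the other cells, which held most of its UMIs: 3.89% of Tyms UMIs lay in dividing cells, against 78.3% of Ube2c UMIs. The dividing cells held 36.1% of all UMIs of the 14 genes, 22.6% with vehicle at 3.9 mM, 27.2% with imeglimin at 3.9 mM, 62% with vehicle at 11.1 mM and 25.8% with imeglimin at 11.1 mM.

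At the limit of the rule, 36 cells had exactly 3 of the genes and 9 had exactly 4, while 33 cells had 10 or more. Genes outside the rule describe the same cells from another side. The 85 mitosis genes outside the rule made up 922 CPM (UMI counts scaled to a common library total, the counts-per-million unit) in cells with none of the 14 genes, 1278 in cells with exactly 3, 2959 in cells with exactly 4 and 10670 in cells with 10 or more. The 49 replication genes stood at 488, 734, 1132 and 2083 in the same order. Between 3 and 4 genes the level of the mitosis genes thus more than doubled, and it was higher still in cells with more of them.

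Most dividing cells were beta-like, and so were most kept cells (19365 of 31792). Cells were clustered without cell-cycle genes and clusters were named from markers. By cluster, 70 of the 99 were beta-like, 8 alpha-like and 1 PP-like (pancreatic polypeptide), 3 lay in endothelial-, macrophage- and stromal-like clusters, and 17 lay in 4 clusters left unnamed, in which 62.9% to 97% of the cells carried more than 1 hormone. The beta-like cells numbered 8, 23, 27 and 12 in the 4 libraries. With cell-cycle genes kept in the clustering, 93 of the 99 instead fell together in 1 cluster of 103 cells, led by Ube2c, Top2a, Cenpf and Mki67.

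The hormones of each cell gave nearly the same picture. A cell was said to carry insulin at 100 UMIs or more of Ins1 and Ins2, and glucagon (Gcg), somatostatin (Sst) or pancreatic polypeptide (Ppy) at 50 or more. These minimums were chosen after the values were seen. Cells of the non-endocrine classes, which make no hormone, had a median of 12 to 47 insulin UMIs in the 4 libraries and 0 or 1 of the others. By this count 70 dividing cells carried insulin alone (8, 22, 28 and 12), 4 glucagon alone and 2 PP alone. No dividing cell carried somatostatin alone: all 7 with somatostatin carried another hormone as well. No cluster was named for delta cells, which make somatostatin. Clusters 7 and 13, both led by Sst, were left unnamed since 64.3% and 94.8% of their cells carried more than 1 hormone. They held 4 and 3 dividing cells. Dividing delta cells thus could not be counted.

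More than 1 hormone was carried by 21 of the 97 dividing cells with any hormone (21.7%, 95% exact binomial interval 13.9 to 31.2). Insulin was among the hormones in 17 of the 21, glucagon in 13, PP in 13 and somatostatin in 7. The share was 16% in other hormone-carrying cells. It was 29.1% among the 10 other cells of the library nearest to each dividing cell in UMIs. A droplet with 2 cells also carries several hormones. The doublet caller called 0 cells in every library and so did not work. Of the 99 cells, 2 were among the highest doublet scores up to the expected rate, both with vehicle at 3.9 mM. Whether the other cells with several hormones were doublets was not tested.

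**Figure D1:**
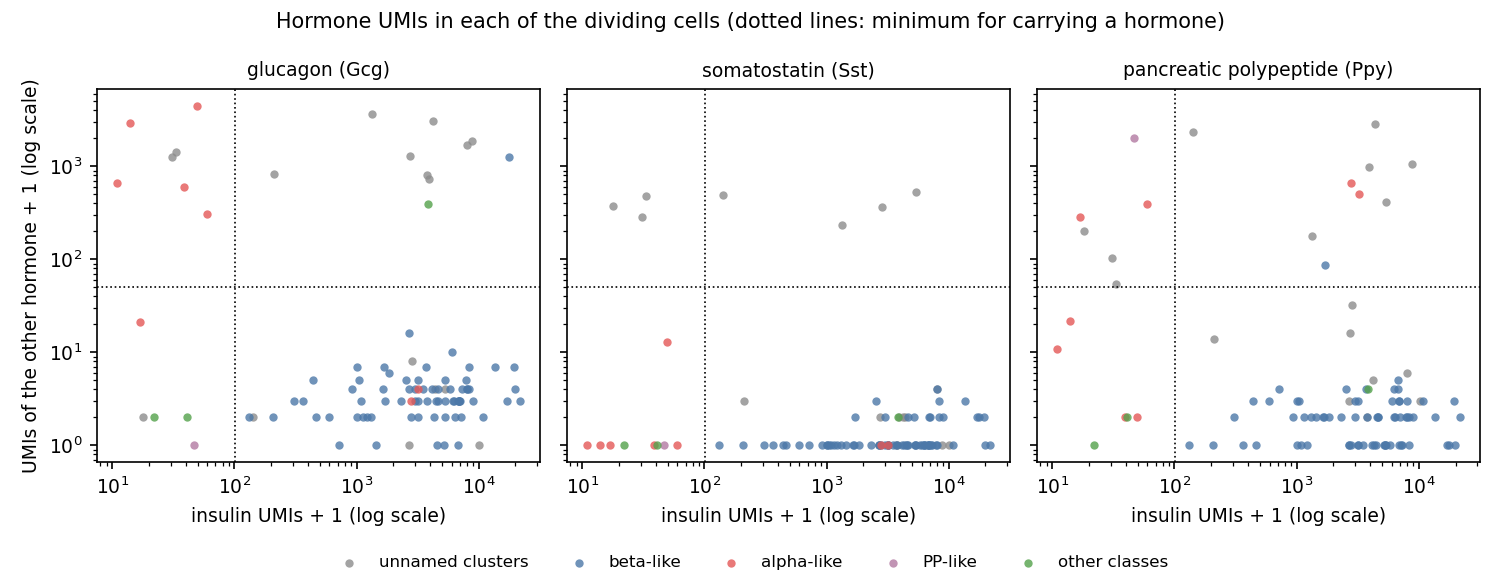
Insulin UMIs (x axis) against glucagon, somatostatin and pancreatic polypeptide UMIs (y axis), each + 1 on a log scale, for each of the 99 dividing cells, coloured by class of cluster. The 70 cells with insulin alone lie at the lower right of each panel, right of one dotted line and below the other, and every cell above the dotted line for Sst is also above the line for another hormone.

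The alpha-like clusters held 8 dividing cells, 2 with vehicle and 5 with imeglimin at 3.9 mM and 1 with vehicle at 11.1 mM. With imeglimin at 11.1 mM none of 869 was dividing, which allows a share of up to 0.345%. Of the 8, 4 carried glucagon alone, with 2959, 4465, 605 and 656 Gcg UMIs. The other 4 did not: 1 carried Ppy alone (288 UMIs), 1 carried 307 Gcg and 389 Ppy UMIs, and 2 carried insulin (2790 and 3212 UMIs) with Ppy (661 and 509) and 2 or 3 Gcg UMIs. So by their hormones only part of the alpha-like dividing cells were glucagon cells. The PP-like cell, with imeglimin at 3.9 mM, had 1996 Ppy UMIs and 0 Gcg UMIs.

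Non-endocrine cells gave few members. The stromal-like cell, with vehicle at 3.9 mM, had 144 UMIs of Col1a1 and 60 of Col3a1, the genes of fibrillar collagens, and 19 of the pericyte gene Pdgfrb, against 21 insulin UMIs. The cell in the macrophage-like cluster, with imeglimin at 3.9 mM, had 3207 UMIs, 10 of the 14 genes and 4 of the 8 markers of T and NK cells. Cd3e, a CD3 subunit of the T cell receptor complex, had 2 UMIs in it, so the cell's markers went against its cluster. The cell in the endothelial-like cluster, with vehicle at 3.9 mM, had 14 UMIs of Pecam1 and 7 of Cdh5, genes of endothelial junctions, but also 3820 insulin and 389 Gcg UMIs, and it was among the highest doublet scores. None of 176 acinar-like cells was dividing, which allows up to 1.7%.

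**Figure D2:**
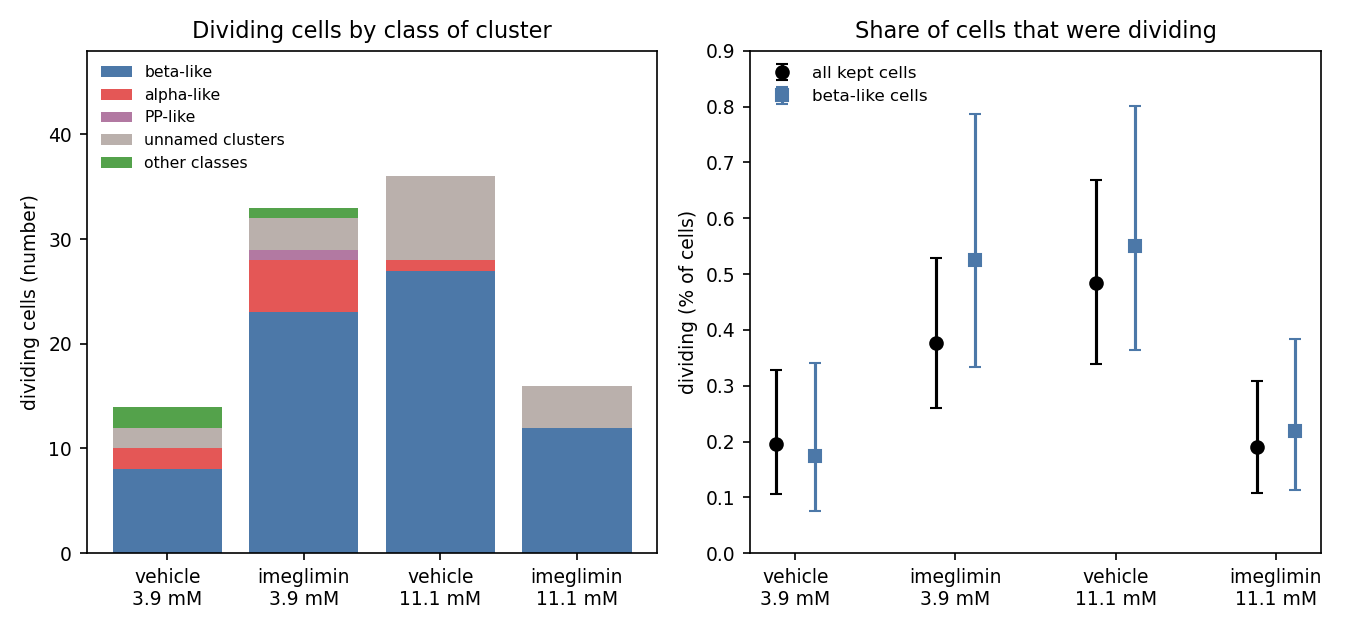
Left, number of dividing cells in each library by class of cluster. Right, share of all kept cells (circles) and of beta-like cells (squares) that were dividing, in percent, with 95% exact binomial intervals. The share was highest with vehicle at 11.1 mM in both, at 0.484% and 0.551%, with intervals that overlap those of imeglimin at 3.9 mM.

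At 3.9 mM glucose, dividing cells made up 0.195% (0.107 to 0.328) of the kept cells under vehicle and 0.377% (0.26 to 0.529) under imeglimin. At 11.1 mM they made up 0.484% (0.339 to 0.669) under vehicle and 0.19% (0.109 to 0.308) under imeglimin. Among beta-like cells the shares were 0.173%, 0.525%, 0.551% and 0.219% in the same order. Imeglimin stood above vehicle at 3.9 mM, with 3.03 times the share of beta-like cells (counting interval 1.31 to 7.83), and below it at 11.1 mM, with 0.398 times the share (0.184 to 0.813). Vehicle at 11.1 mM stood at 3.18 times the share at 3.9 mM (1.41 to 8.1).

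At equal depth the ratio at 11.1 mM kept its direction, and the size of both ratios depended on the depth chosen. With every cell thinned to 3000 UMIs, 0.0655% (3 of 4582) and 0.07% (3 of 4284) of beta-like cells were dividing at 3.9 mM with vehicle and imeglimin, a ratio of 1.07 (0.143 to 7.99). At 11.1 mM they were 0.309% (15 of 4853) and 0.111% (6 of 5400), a ratio of 0.359 (0.114 to 0.98). Thinned to 5000 UMIs, the ratios were 4.35 (1.17 to 24) and 0.226 (0.0757 to 0.568). Among all kept cells with 10 or more of the 14 genes, imeglimin over vehicle was 1.02 (0.22 to 5.16) at 3.9 mM and 0.364 (0.128 to 0.923) at 11.1 mM. The beta-like cells of the 4 libraries also lay in different clusters. Cluster 0, led by Trpm5, Fam151a and Glp1r, held 89.9% of those with vehicle at 3.9 mM. Cluster 1, led by Mt2, Snhg15 and Ddit3, held 64.9% of those with imeglimin at 3.9 mM and 22 dividing cells. Clusters 6 and 4, both with Slc2a2, Mafa and Ins1 among their leading genes, held 41.9% and 37.4% of those with vehicle at 11.1 mM, and cluster 2, led by G6pc2, Prlr and Ins1, 48.2% of those with imeglimin at 11.1 mM.

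The cells can be sorted by which of the rule's own genes they carried, which describes the choice and is no result about the cells, since the rule holds more genes of mitosis than of DNA synthesis. Pclaf, Tyms, Rrm2 and Tk1 serve DNA synthesis, and Ccnb1, Ccnb2, Cenpf, Ube2c, Birc5 and Nusap1 serve mitosis. A cell was put on a side when it had a UMI of at least 2 of that side's genes, so a cell on 1 side may carry 1 gene of the other. By this count 62 cells were on the mitotic side, 29 on both, 6 on the replication side and 2 on neither. The 6 cells of the replication side were 5 with vehicle at 11.1 mM and 1 with imeglimin at 3.9 mM. With vehicle and imeglimin at 3.9 mM, then at 11.1 mM, 7 of 14, 6 of 33, 13 of 36 and 3 of 16 cells were on both sides. On the mitotic side were 7, 26, 17 and 12 in the same order.

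Genes outside the rule also differed in level between these sets of cells. Side and library cannot be told apart here, since 5 of the 6 cells of the replication side came from vehicle at 11.1 mM. The 49 replication genes made up 3697 CPM on the replication side, 2226 in cells with both and 1327 on the mitotic side. The mitosis genes made up 4427, 7140 and 6597 in the same order. Pcna, the sliding clamp of DNA polymerase, stood at 370, 188 and 104 CPM. Cdc20 stood at 0, 84.2 and 86 and was found in 0 of 6, 21 of 29 and 37 of 62 cells. Hist1h1b, a linker histone made during DNA synthesis, stood at 46.2, 219 and 75.7.

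To describe what else set dividing beta-like cells apart, UMIs were summed in each library over its dividing and over its other beta-like cells. The sums were scaled by the trimmed mean of M-values (TMM) to CPM. The libraries held 8, 23, 27 and 12 dividing and 4608, 4357, 4872 and 5458 other beta-like cells, 70 and 19295 in all. The dividing sums held 215000 to 560373 UMIs. Outside the 14 genes, 6513 genes reached 20 CPM in either sum of at least 2 libraries. At least 1.5-fold higher in dividing cells in all 4 libraries were 200 genes (3.07% of those compared), and 59 were at least 1.5-fold lower in all 4 (0.906%). The median log2 ratio over all genes compared was -0.14, and the ratios below are best read against it. The cells were chosen on genes of the same program, so these shares are a description and carry no test. Unscaled CPM moved that median to 0.04 and gave 269 higher and 15 lower genes, so that 94.7% of the counted genes were higher, against 77.2% with TMM and 88% with the mean of per-cell CPM. Asking for 3 libraries in place of 4 gave more lower genes, 99 without vehicle at 3.9 mM, 156 without imeglimin at 3.9 mM, 119 without vehicle at 11.1 mM and 130 without imeglimin at 11.1 mM. Alpha-cell markers summed to 307, 373, 2984 and 773 CPM in the dividing beta-like cells and to 708, 1293, 949 and 893 in the others. With vehicle at 11.1 mM, 1 dividing beta-like cell had 1270 Gcg UMIs and each of the others 0 to 15. The part of these markers in the ratios was not tested.

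**Figure D3:**
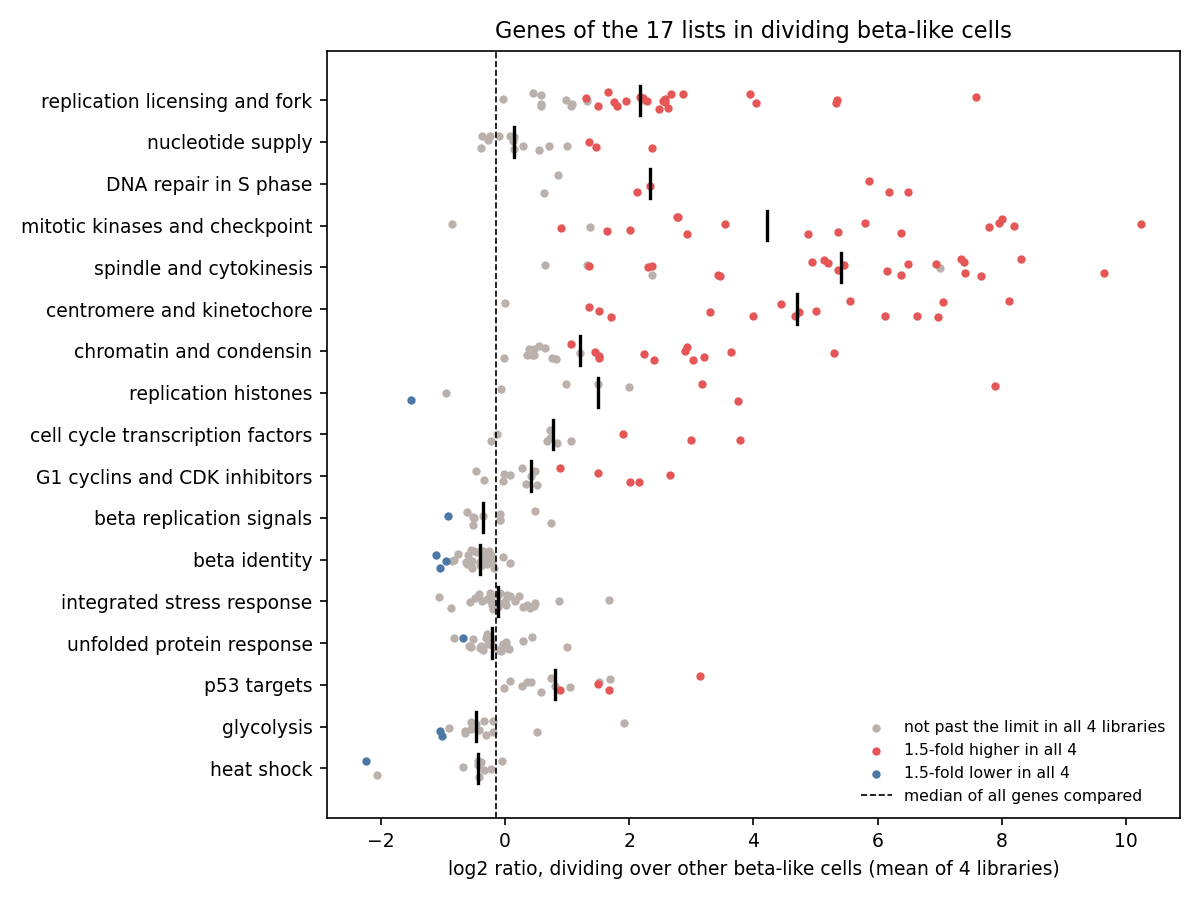
Mean log2 ratio over the 4 libraries, dividing over other beta-like cells, for each gene compared in 17 gene lists (rows). Points are genes, bars the median of each list, the dashed line the median of all genes compared, and colours mark genes at least 1.5-fold apart in the same direction in all 4 libraries. The lists of mitosis lie farthest to the right, with medians of 4.22, 5.41 and 4.7, and the beta identity list lies left of 0 with a median of -0.4.

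Mitosis genes outside the rule had the highest list medians. Many reached the 20 CPM needed to be compared only through the dividing cells, so that they had to differ, and their counts are a description. Of those compared, 16 of 18 kinase and checkpoint genes, 20 of 24 spindle and cytokinesis genes and 15 of 16 centromere and kinetochore genes were higher in all 4 libraries and none was lower. With no minimum level the counts were 23 of 26, 25 of 32 and 22 of 26, beside 368 of 16785 genes over all. The highest mean ratio of all belonged to Pbk, a mitotic kinase, with a log2 ratio of 10.24 ± 1.14 (SD, n = 4 libraries). It had 221 UMIs in the 70 dividing cells and 27 in the 19295 others. By library it stood at 79.9, 111, 191 and 132 CPM in dividing cells and at most 0.152 CPM in the others. Hmmr, which helps to organise the spindle, had 169 UMIs against 28. Cdc20 had 119 against 73, with log2 ratios of 8.26, 6.56, 8.41 and 8.55. Aurkb, the kinase of the chromosomal passenger complex, had 43 against 25, Knl1, the kinetochore scaffold, 96 against 43, and Ckap2l, a spindle protein, 88 against 54. Also among the 12 highest ratios were Bub1 and Nek2, both mitotic kinases, Kif4, a motor of the chromosome arms, and Cdca3, a cell division factor, with 40, 54, 42 and 131 UMIs in dividing cells. The other 2 of these 12 were Hist1h1b (180 UMIs against 100) and Clspn, a mediator of the replication checkpoint (67 against 67). Plk1, the polo-like kinase, had 33 UMIs against 30 and stayed under the level needed to be compared.

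Replication genes were higher too, and by less. Of 31 licensing and fork genes compared, 21 were higher in all 4 libraries and none lower, with a median of 2.18. Of all genes compared 3.07% were higher and 0.906% lower. Some, such as Mcm6 below, reached 20 CPM only through the dividing cells, so that they could not count as lower. With no minimum level 33 of 49 were higher and none lower, beside 368 and 98 of 16785 genes over all. The helicase subunits Mcm5 and Mcm3 had mean log2 ratios of 5.34 ± 0.57 and 5.33 ± 0.35 (SD, n = 4 libraries). Mcm6 stood at 30, 34.4, 77.9 and 23.4 CPM in dividing cells and at 7.08, 8.44, 6.39 and 4.95 in the others. The 4 libraries gave the same direction for it, and vehicle at 11.1 mM gave the widest gap. Pcna did not pass in every library: it stood at 63.2 against 49.9 CPM with vehicle at 3.9 mM, 198 against 83.3 with imeglimin at 3.9 mM, 212 against 36.4 with vehicle at 11.1 mM and 105 against 47.5 with imeglimin at 11.1 mM.

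Of 7 genes of DNA repair in S phase, 5 were higher, among them the glycosylase Neil3 (6.49 ± 1.75, SD, n = 4 libraries) and Brca2 (2.34). Of all genes compared 3.07% were higher and 0.906% lower. All 20 genes of the repair list together stood at 104.5, 117, 84.3 and 93.4 CPM in the other cells. A gene that reached 20 CPM only through the dividing cells could not count as lower. With no minimum level 12 of 19 repair genes were higher and none lower, beside 368 and 98 of 16785 genes over all. Nucleotide supply differed from this: 3 of 16 genes compared were higher, the ribonucleotide reductase subunit Rrm1 (2.36), the dUTPase Dut (1.47) and the thymidylate kinase Dtymk (1.35), and the list's median was 0.15. Most genes of purine and pyrimidine synthesis in it, such as Cad (0.12), Paics (0.15) and Gart (0.16), named after their values were seen, differed little between dividing and other cells.

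Of 23 chromatin and condensin genes compared, 12 were higher and none lower, beside 3.07% and 0.906% of all genes compared. Here too a gene that reached 20 CPM only through the dividing cells could not count as lower. With no minimum level 13 of 25 were higher and none lower, beside 368 and 98 of 16785 genes over all. The higher genes included the condensin subunits Ncapg (5.3), Smc2 (3.63), Ncapd2 (3.21) and Ncapg2 (3.02). Ezh2 (2.41), the histone methyltransferase known for keeping beta cells able to divide, was higher too. Ezh2 stood at 49.9, 62.7, 122 and 50.6 CPM in dividing cells against 12.5, 21.7, 7.92 and 11.4 in the others. Histone genes were split. Messages of replication-dependent histones mostly lack the poly(A) tail that the assay primes on, and 9 of the 24 listed were compared. Hist1h1b (7.89), Hist1h2ap (3.76) and Hist1h2ae (3.17) were higher, and Hist1h2bc was lower, at 113, 360, 103 and 97.4 CPM against 344, 727, 306 and 352. Hist3h2a, outside the list, was also lower (-1.19), with 0 UMIs in dividing cells with imeglimin at 11.1 mM, where 3 UMIs were put in place of 0.

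Transcription factors of the cycle were measured thinly. Of 10 compared, E2f1 (2.99 ± 0.27, SD, n = 4 libraries), Mybl1 (3.78) and Lin9, a MuvB subunit (1.91), were higher in all 4 libraries. With no minimum level 10 of 24 were higher and 1 lower, beside 368 and 98 of 16785 genes over all. E2f1 stood at 43.3, 46.5, 63.7 and 39 CPM in dividing cells against 4.92, 4.83, 8.58 and 6.16. It thus reached 20 CPM only through the dividing cells and could not count as lower. Foxm1 had 35 UMIs in dividing cells and 69 in all the others, and Mybl2, which encodes B-MYB, 4 and 65, both under the level needed to be compared.

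Some inhibitors of the cycle were among the higher genes. Of 15 genes compared among G1 cyclins and CDK inhibitors, 5 were higher and none lower, beside 3.07% and 0.906% of all genes compared. With no minimum level 6 of 22 were higher and none lower. The 5 were Cdkn2c and Cdkn2d, which encode the CDK4 and CDK6 inhibitors p18 and p19, Ccne2, a cyclin of S phase entry, and the p53 targets Cdkn1a and Ccng1. Cdkn2c stood at 53.2, 38.4, 228 and 66.2 CPM in dividing cells against 17.2, 10.4, 12.9 and 8.3 in the others. It reached 20 CPM only through the dividing cells, so that it could not count as lower. Cdkn1a, which encodes the CDK inhibitor p21, stood at 463, 738, 381 and 514 CPM against 176, 358, 104 and 160, a log2 ratio of 1.5 ± 0.36 (SD, n = 4 libraries). It was the same way in all 4 libraries, and 89 of all 99 dividing cells had a UMI of it, against 58.2% of the other cells, which were shallower.

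The D cyclins, which start the cycle, were not higher. Ccnd2, the main D cyclin of beta cells, stood at 589, 510, 600 and 518 CPM in dividing cells and at 802, 628, 831 and 805 in the others, lower in all 4 libraries but within 1.5-fold in 3. Ccnd1 (-0.34), Cdk4 (0.34) and Cdkn1b, which encodes p27 (0.08), had mean log2 ratios within 1.5-fold of 0. Cdkn1c, which encodes p57, had 7 UMIs in dividing cells.

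The p53 list held further genes that were higher. Of 15 compared, 4 passed in all 4 libraries and none was lower: Phlda3, a repressor of AKT signalling (3.14), the stress-induced kinase Plk2 (1.68), Cdkn1a and Ccng1 (0.89). A further 6 were above 0 in all 4 libraries, so that 10 of the 15 were, against 678 of the 6513 genes compared. The list's median was 0.81. With no minimum level 5 of the list's 20 genes passed as higher and none as lower, beside 368 and 98 of 16785 genes over all. Phlda3 stood at 270, 196, 38.9 and 62.3 CPM in dividing cells against 27.8, 53.5, 4.22 and 3.35. It was found in 43 of the 99 cells, and 58 of its UMIs lay in a single cell. Cdkn1a was found in all 6 cells of the replication side, all 29 with both sides and 52 of the 62 on the mitotic side, at 185, 514 and 551 CPM. Of those 6 cells, 5 came from vehicle at 11.1 mM. Dividing beta-like cells there had the lowest median per cell of Cdkn1a, 109 CPM, against 812, 524 and 190 in the other libraries. Side and library thus cannot be told apart. Trp53 itself differed little (-0.01). Set against the 10 other cells nearest in depth to each dividing cell, Ccng1 and Plk2 no longer passed in all 4 libraries, nor did Dtymk, Lin9, Diaph2 and Dnajb9. Their mean log2 ratios were then 0.83, 1.6, 1.2, 1.62, -1.19 and -0.68, close to those against all other cells.

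**Figure D4:**
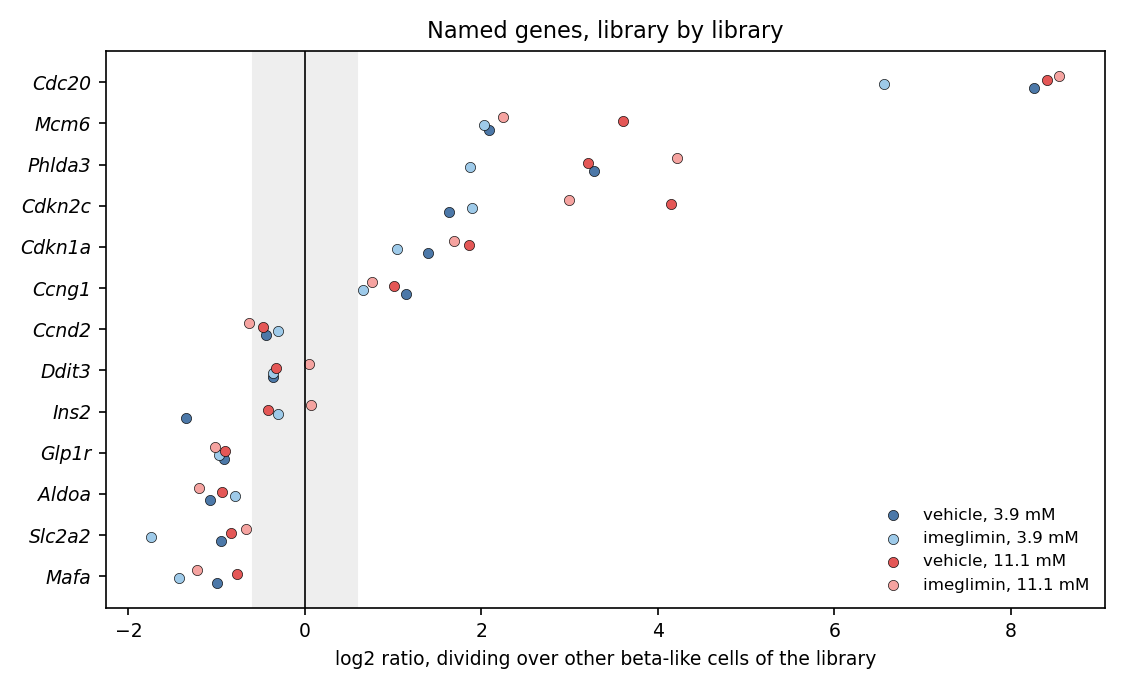
Log2 ratio of dividing over other beta-like cells in each of the 4 libraries (points) for 13 genes (rows), with a grey band for differences under 1.5-fold. Cdc20, Mcm6, Phlda3, Cdkn2c, Cdkn1a and Ccng1 lie right of the band in every library, and Glp1r, Aldoa, Slc2a2 and Mafa lie left of it in every library.

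Genes of beta-cell identity were lower or level. Of 30 compared, 3 were at least 1.5-fold lower in all 4 libraries and none was higher, 19 were below 0 in all 4, and the median was -0.4. Of all 6513 genes compared, 59 were lower (0.906%), 1462 were below 0 in all 4 libraries, and the median was -0.14. The 3 were Mafa, the transcription factor of mature beta cells (-1.1 ± 0.28, SD, n = 4 libraries), Slc2a2, the glucose transporter GLUT2 (-1.05 ± 0.48), and Glp1r, the receptor of the incretin GLP-1 (-0.95 ± 0.05). Glp1r stood at 176, 40.4, 262 and 89.6 CPM in dividing cells and at 332, 79.7, 492 and 181 in the others, close to 2-fold lower in each library. Mafa stood at 43.3, 18.2, 329 and 140 CPM against 86.4, 48.9, 562 and 327. With unscaled CPM neither Mafa nor Slc2a2 passed in all 4 libraries, although both stayed below 0. Nkx6-1 (-0.59), Pdx1 (-0.36) and Ucn3 (-0.36) did not pass. Of 15 glycolysis genes, Aldoa, an aldolase (-1 ± 0.18, SD, n = 4 libraries), and Slc2a2 were lower and none was higher. Of 11 genes that signal for beta-cell replication, Igf1r, the IGF1 receptor, was lower (-0.91) and none higher, and with unscaled CPM it did not pass either. The prolactin receptor Prlr, which drives beta-cell replication in pregnancy, stood at 116, 123, 501 and 604 CPM in dividing cells against 106, 128, 658 and 592 in the others.

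Among the lowest ratios were also Hspa1a, a heat shock protein (-2.24 ± 2.16, SD, n = 4 libraries), which was set by vehicle at 11.1 mM, with 3.54 CPM against 148 in the others. Beside the histones named above, the 12 lowest held genes with 12 to 30 UMIs in dividing cells. They were Rps6ka2, a ribosomal S6 kinase (-1.6), Sbf2 (-1.6), the sulfotransferase Sult1d1 (-1.54), Fam135b (-1.49), Vstm2l (-1.46), Dusp5, a phosphatase of ERK kinases (-1.35), the formin Diaph2 (-1.29), Gprasp2 (-1.27) and Gdap2 (-1.25). Outside the rule for named genes and chosen after their values were seen, Sst, Pyy and Ppy were lower as well (-2.9, -2.58 and -2.42). Sst had 0 UMIs in dividing cells with vehicle at 3.9 mM, where 3 were put in place of 0. These hormones are far higher in other classes, and the part of free RNA and of droplets with 2 cells in their levels here was not tested.

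Few stress genes passed, as few genes did over all. None of 31 genes of the integrated stress response and 1 of 25 of the unfolded protein response, the chaperone Dnajb9 (-0.67), passed in all 4 libraries, beside 3.07% higher and 0.906% lower of all genes compared, and the medians of -0.1 and -0.21 lay near that of all genes. With unscaled CPM the median of the integrated stress response was 0.07. Ddit3, which encodes the stress factor CHOP, stood at 952, 1555, 110 and 429 CPM in dividing cells and at 1228, 1992, 138 and 415 in the others. Atf4 (-0.22), Trib3 (-0.36) and the chaperone Hspa5 (0.04) did not pass either. The metallothioneins Mt1 and Mt2 were below 0 in all 4 libraries without passing 1.5-fold in each. Nupr1 went both ways, with log2 ratios of -0.51, -0.18, 0.97 and -0.69.

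Insulin differed from library to library. Insulin made up a median of 3.37% of the UMIs of dividing beta-like cells with vehicle at 3.9 mM (2.91 to 7), against 8.93% in the others and 10.7% in those nearest in depth. With imeglimin at 3.9 mM it made up 7.52% (1.34 to 69.1), against 14.1% and 21.9%. With vehicle at 11.1 mM it made up 28.2% (19.1 to 45.6), against 33.3% and 35%, and with imeglimin at 11.1 mM 31.1% (12.2 to 70.7), against 27.7% and 28.7%. All 8 cells with vehicle at 3.9 mM lay below the median of the other cells there, and dividing cells with imeglimin at 11.1 mM lay on both sides of it. In summed CPM, Ins1 stood at 3362 in dividing cells and 12330 in the others with vehicle at 3.9 mM, but at 97870 and 89310 with imeglimin at 11.1 mM. Txnip, a gene switched on by glucose, went both ways too, with log2 ratios of 1.54, 0.5, -0.22 and 0.97 on 66 UMIs.

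**Figure D5:**
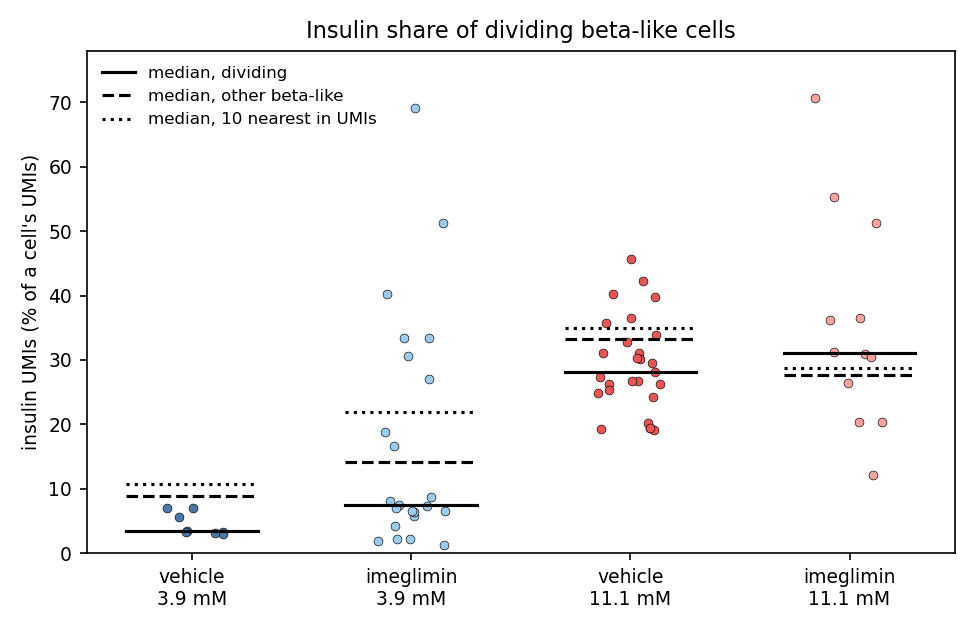
Insulin UMIs as a percent of all UMIs of each dividing beta-like cell (points) in the 4 libraries, with medians of the dividing cells (solid), of the other beta-like cells (dashed) and of the 10 others nearest in UMIs to each dividing cell (dotted). With vehicle at 3.9 mM all 8 points lie below the dashed line at 8.93%, and with imeglimin at 3.9 mM the points spread from 1.34% to 69.1%.

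Some genes differed between conditions by a like amount in dividing and in other cells, and others did not. Between imeglimin and vehicle at 11.1 mM, Ddit3 had 110 UMIs in 12 dividing beta-like cells and 62 in 27, a log2 ratio of 1.92 (counting interval 1.46 to 2.39) beside 1.59 in the other cells. At 3.9 mM it was 0.66 (0.46 to 0.86) beside 0.7. Glp1r was lower with imeglimin in both, at -2.18 (-3 to -1.41) beside -2.06 at 3.9 mM and -1.59 (-2.3 to -0.95) beside -1.44 at 11.1 mM. Mt1 was higher, at 1.01 beside 0.78 and at 1.27 beside 1.95. Cdkn1a was higher at 0.62 (0.34 to 0.91) beside 1.03 and at 0.39 (0.06 to 0.71) beside 0.61. These intervals leave out the variation between cells, and a few cells can set a ratio.

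The genes of the cycle below were all lower with imeglimin at 11.1 mM, and at 3.9 mM they went both ways. Foxm1, E2f1, Plk1 and Aurkb had log2 ratios of 0.23, 0.05, 0.23 and 0.23 at 3.9 mM. At 11.1 mM they had -1.17, -0.76, -1.43 and -1.57, and each of their counting intervals at both concentrations included 0. Between imeglimin and vehicle, Pcna stood at 1.59 (0.88 to 2.39) at 3.9 mM and at -1.06 (-1.72 to -0.45) at 11.1 mM, beside 0.74 and 0.38 in the other cells. Mcm6 stood at 0.15 (-1.1 to 1.49) and -1.78 (-3.3 to -0.55), and Ezh2 at 0.28 (-0.66 to 1.27) and -1.32 (-2.3 to -0.45), so that of these 3 genes Pcna alone had intervals on opposite sides of 0. Cdc20 stood at -0.65 (-1.53 to 0.23) and -0.69 (-1.59 to 0.13), beside 1.1 and -0.78 in the other cells. Ccnd1 stood at -0.42 (-1.16 to 0.33) and -0.97 (-1.61 to -0.38), beside -0.78 and -0.15. Ccnd2 stood at -0.26 (-0.55 to 0.02) and -0.26 (-0.56 to 0.035), beside -0.35 and -0.05. Cdk4 stood at -0.57 (-1.12 to -0.02) and -0.34 (-1.04 to 0.31), beside -0.25 and 0.06. Among Cdc20, Ccnd1, Ccnd2 and Cdk4, only Ccnd1 at 11.1 mM and Cdk4 at 3.9 mM had intervals that left out 0. Other genes differed less in dividing cells. Nupr1, at 1.85 in the other cells at 11.1 mM, stood at 0.14 (-0.11 to 0.4) in dividing ones, and Txnip at 0.45 beside 1.54 at 3.9 mM and at -0.09 beside -1.23 at 11.1 mM. Ins1 and Ins2 instead differed more in dividing cells at 3.9 mM, at 2.89 and 2.23 beside 1.07 and 1.24 in the other cells. At 11.1 mM they stood at -0.08 and 0.34, beside -0.51 and -0.1. A few cells rich in insulin weigh on the sums at 3.9 mM: the median per dividing cell was 3629 CPM of Ins1 with vehicle and 7772 with imeglimin, and 31070 and 67050 CPM of Ins2, a smaller gap than that of the sums.

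In alpha-like clusters the 8 dividing cells were pooled and set against the 3582 others, weighted to the same libraries. The 14 rule genes made up 2005 CPM in them against 16.7. Spindle genes outside the rule made up 3941 CPM against 421, replication genes 1487 against 553 and p53 targets 1694 against 1281. Genes outside the cell-cycle lists were ranked only with at least 10 UMIs and 20 CPM in the 8 dividing cells. A gene low in these cells thus could not appear, and the ranking is a description. The highest ratio was that of Lockd, a long non-coding RNA next to Cdkn1b (28 UMIs, 242 CPM against 3.62). Next came Knstrn, a spindle protein (12 UMIs), Arhgap11a (10), Gas2l3 (10) and Trim59 (11). How many of the 8 cells gave these UMIs was not counted. Lockd was higher in dividing beta-like cells as well, with 307 UMIs. Cdkn1a stood at 311 CPM against 199 and Gcg at 77930 against 128800, where 4 of the 8 cells carried no glucagon above the minimum or carried another hormone with it. Dividing cells of the beta-like, alpha-like and unnamed clusters had the mitosis genes at 6800, 7130 and 5329 CPM, against 897, 959 and 938 in the other cells of each.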

How the data were processed

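Single-cell 3′ RNA-seq libraries of mouse islets, 1 for each of 4 conditions, were analysed from the raw UMI counts that the authors deposited as gene by cell matrices. Cell Ranger 6.0.2 and mm10 are named per the submitters' processing notes. Kept cells had 1000 UMIs and 500 genes or more, with 20% of UMIs or less from mitochondrial genes. Cells were clustered with scanpy 1.11.5 and leidenalg 0.10.2 (2000 variable genes, 30 components, 15 neighbours, resolution 1, 22 clusters) without 261 cell-cycle genes, and named from marker lists. Scanpy's doublet caller called 0 cells, so none was removed. UMIs were summed per library over dividing and other beta-like cells and scaled by TMM (edgeR 4.0.16 in R 4.3.3), with 3 UMIs in place of 0. A gene was higher or lower when at least 1.5-fold apart in the same direction in all 4 libraries. Named were the 12 highest and 12 lowest of these outside the rule, leaving out unnamed gene models, mitochondrial genes and genes over 10 times higher in another class, then up to 4 leading genes of each list and genes chosen by role. Alternatives changed the scaling, the filter on low genes, the compared cells, the rule's number of genes, depth and clustering, and left out each library. The alternatives with insulin as the one hormone and with at least 10000 UMIs were chosen after seeing the data. The members and gene lists were chosen with earlier results of these data known. The counting method was checked on simulated data.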

Additional observations from a re-analysis of the deposited data

Results flagged for a closer look

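Imeglimin and vehicle differed in opposite directions at the 2 glucose concentrations in 6 measures. They are not independent, since the shares count largely the same dividing cells. With 1 library per condition the difference between the directions was not tested. The share of dividing cells with imeglimin over vehicle was 1.93 at 3.9 mM and 0.393 at 11.1 mM among kept cells. It was 3.03 and 0.398 among beta-like cells, and 2.66 and 0.387 among cells with insulin as their only hormone. Thinned to 3000 UMIs, kept cells gave 1.21 and 0.332, and beta-like cells 1.07 and 0.359. Within dividing beta-like cells the log2 ratio of Pcna was 1.59 and -1.06, that of Ins1 2.89 and -0.08, and that of Iapp, which encodes islet amyloid polypeptide, 0.55 and -0.33. Genes were flagged by counting intervals, which leave out variation between cells. For Ins1 at 11.1 mM the ratio was small and its interval narrow (-0.1 to -0.05).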

How the results depend on the processing

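The shares moved with depth, with the number of genes asked for and with the clustering. Thinned to 3000 UMIs, the share of dividing cells was 0.0891%, 0.108%, 0.266% and 0.0886% in the order vehicle and imeglimin at 3.9 mM, then at 11.1 mM, and that of beta-like cells 0.0655%, 0.0700%, 0.309% and 0.111% (0.141% over all). With imeglimin at 3.9 mM the share was 0.249% at 5000 UMIs, 0.628% with at least 3 of the genes and 0.251% with at least 6. With at least 3 genes the beta-like share there was 0.936%, and 0.501% over all. With cell-cycle genes kept in the clustering, 4 dividing cells were beta-like, 0 alpha-like and 0 unnamed. By hormone UMIs 4 were alpha cells, and at resolution 0.5 the alpha-like share was 0.479%. Of the genes compared, 309 were higher with the mean of per-cell CPM, 353 with a minimum of 5 CPM and 368 with no minimum. There were 15 lower genes with unscaled CPM, 38 with median-of-ratios factors, 98 with a minimum of 5 CPM, 98 with no minimum and 90 with at least 5 of the rule's genes. Leaving out each library gave 192 to 240 higher and 99 to 156 lower genes, where fewer libraries had to pass. No gene counted as higher turned lower under these alternatives, nor the reverse. The causes were not tested. No paired analysis was possible because each condition has 1 library.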
